A study of Drosophila melanogaster with 2 samples.

Results

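The peaks described here are the binding peaks of the shuttle craft protein (stc) that lie on the autosomes inside an intron of a protein-coding gene other than a first intron. Each peak carries a summit, a single base given in the authors' list. A peak was taken when its summit lay more than 250 bp from every transcription start site (TSS). The summit also had to lie in no exon, and in the first intron of no protein-coding transcript. The list that the authors kept between the replicates, called the conservative list below, holds 3831 peaks, 3124 of them autosomal, and 362 met this rule. Most of these 362 were 350 bp wide (quartiles 350 and 350). Peaks of this width, such as that in msn at 2581297 to 2581646 on 3L, had the summit at the midpoint. Their summit need not be the base of highest signal. Chromatin immunoprecipitation and sequencing (ChIP-seq) was done on Drosophila melanogaster, in whole embryos of 0 to 24 h of age, of a strain with an insertion at stc that adds an enhanced green fluorescent protein (eGFP) tag. An anti-GFP antibody was used to pull down the tagged protein from chromatin sheared to 200 to 800 bp by sonication. There was 1 group, stc-eGFP, with 2 biological replicates, so no condition could be compared with another. The tissue is the whole embryo over all of embryogenesis, so a peak may come from some of its cells or stages, and no control experiment was analysed here.

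The stc protein is the fly relative of human NFX1, a zinc finger protein that was named for its binding to the X-box of immune gene promoters, and stc is known for its role in the embryonic nervous system of the fly. Introns are removed from the transcript, and in flies the long ones often hold enhancers, short stretches of DNA where transcription factors bind and raise transcription from a promoter that can be far away. A later intron of a long transcript can also lie just upstream of an internal start site from which a shorter transcript of the same gene begins.

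The summits of most of these peaks had less GC than the sequence beside them, and the sequences below show such stretches rich in A and T. They were chosen for high signal or for copies of TATAAA. All of them had less GC than the class median of 30.7%, so they are not typical of the class. The first 10 windows below belong to 10 of the 12 later-intron peaks of highest signal that were found in both replicates' own lists. The other 2 of these, in Psc and mam, are not printed. The last 6 belong to further such peaks that hold the most copies of TATAAA. Of a list of 35 motifs, and among those held by at least 10% of the summits, this word had the highest share at the summits relative to their flanks. Each window reaches 50 bases to each side of the summit, is read 5' to 3' on the plus strand of the RefSeq Release 6 assembly (dm6), and is named by its host gene, the gene whose intron holds it. Capitals mark TATAAA and its reverse complement TTTATA, which can overlap each other.
CG11050, chr2L:6612654-6612754: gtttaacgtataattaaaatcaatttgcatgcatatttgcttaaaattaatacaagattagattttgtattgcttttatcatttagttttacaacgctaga
Trl, chr3L:14759474-14759574: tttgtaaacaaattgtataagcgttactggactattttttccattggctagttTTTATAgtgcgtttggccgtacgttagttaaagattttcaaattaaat
for, chr2L:3632459-3632559: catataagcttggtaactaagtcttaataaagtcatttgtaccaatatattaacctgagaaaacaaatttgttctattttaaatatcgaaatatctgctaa
Msp300, chr2L:5145703-5145803: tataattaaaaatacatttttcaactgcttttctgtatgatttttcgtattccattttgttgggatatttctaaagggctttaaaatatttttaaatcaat
MYPT-75D, chr3L:18640618-18640718: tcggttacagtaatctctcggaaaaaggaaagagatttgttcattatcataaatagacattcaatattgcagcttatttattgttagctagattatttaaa
beat-Ib, chr2L:15911230-15911330: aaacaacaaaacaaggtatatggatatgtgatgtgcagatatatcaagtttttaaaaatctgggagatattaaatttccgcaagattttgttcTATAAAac
JIL-1, chr3L:11084721-11084821: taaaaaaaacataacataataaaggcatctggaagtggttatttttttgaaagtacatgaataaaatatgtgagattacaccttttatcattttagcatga
sick, chr2L:19865568-19865668: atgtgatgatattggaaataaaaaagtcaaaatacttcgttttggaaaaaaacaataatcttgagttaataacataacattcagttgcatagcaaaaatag
upSET, chr3L:14005026-14005126: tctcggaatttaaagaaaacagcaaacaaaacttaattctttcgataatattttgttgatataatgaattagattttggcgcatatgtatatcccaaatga
Dad, chr3R:17065122-17065222: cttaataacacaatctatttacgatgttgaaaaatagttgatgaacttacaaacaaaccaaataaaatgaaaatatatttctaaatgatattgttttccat
hth, chr3R:10597670-10597770: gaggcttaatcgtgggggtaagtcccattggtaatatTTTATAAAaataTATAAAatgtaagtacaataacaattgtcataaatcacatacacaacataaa
Irk1, chr3R:23173477-23173577: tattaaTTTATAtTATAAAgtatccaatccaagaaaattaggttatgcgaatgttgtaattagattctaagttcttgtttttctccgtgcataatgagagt
msn, chr3L:2581422-2581522: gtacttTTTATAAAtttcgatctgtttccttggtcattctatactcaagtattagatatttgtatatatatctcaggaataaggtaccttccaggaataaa
trh, chr3L:377640-377740: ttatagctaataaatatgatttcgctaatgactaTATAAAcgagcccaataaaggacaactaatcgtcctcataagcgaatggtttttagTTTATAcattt
Tsp, chr2L:6698519-6698619: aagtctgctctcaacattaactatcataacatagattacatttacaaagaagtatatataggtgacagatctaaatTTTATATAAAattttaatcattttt
CG32982, chr2L:9133389-9133489: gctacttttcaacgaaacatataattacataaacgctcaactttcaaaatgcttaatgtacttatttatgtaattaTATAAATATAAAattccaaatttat

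Among the first 10 windows, those of Trl and beat-Ib held 1 copy of TATAAA each and the others held none. GC content of these windows lay between 21.8% (Msp300 and Dad) and 29.7% (Trl). The hth window held 3 copies and the windows of Irk1, msn, trh, Tsp and CG32982 held 2 each, with GC contents of 20.8% (CG32982) to 29.7% (trh).

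Replicate 1's own thresholded list held 254 later-intron peaks among 2782 peaks and replicate 2's held 340 among 3806. The peak lists carry no read depth, and the number of reads behind a peak is therefore unknown. The signal of a peak is the authors' value, on a scale not given in the sources used here, so signals are set side by side only within a list. Shares carry exact (Clopper-Pearson) 95% intervals, which cover counting error only. Peaks of the same libraries are not replicates, so no test was run across them.

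Later introns held fewer stc peaks per length of sequence than any other large class outside exons. They cover 22.7 Mb, 20.5% of the autosomal bases, and held 11.6% of the autosomal peaks. The density was 15.97 peaks per Mb in later introns, against 52.2 in first introns, 20.2 in intergenic sequence, 106 within 250 bp of a TSS and 4.43 in exons. The order of the classes was the same in each replicate's own list. Replicate 1 had 11.2 peaks per Mb in later introns, 36.6 in first introns and 14.8 in intergenic sequence, and replicate 2 had 15, 49.4 and 18.1.

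The gap between later introns and the other classes was also there in how many ranked peaks passed the threshold. The authors' ranked list holds weaker peaks too, and every peak of the conservative list had an irreproducible discovery rate (IDR, a measure of how well the ranks of a peak match between replicates) of 0.00999 or less. Of 14412 ranked later-intron peaks, 362 were kept (2.51%, 2.26 to 2.78), against 3.59% of all autosomal ranked peaks. The share was 5.04% (4.72 to 5.36) in first introns, 3.55% (3.27 to 3.84) in intergenic sequence, 10.5% (9.89 to 11.1) at promoters and 0.499% (0.419 to 0.591) in exons. Later-intron ranked peaks that failed and overlapped no kept peak numbered 13993, or 617 per Mb, against 978 in first introns and 547.5 in intergenic sequence. These failed peaks come from the same libraries and serve below as a background for position, sequence and host genes.

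**Figure D1:**
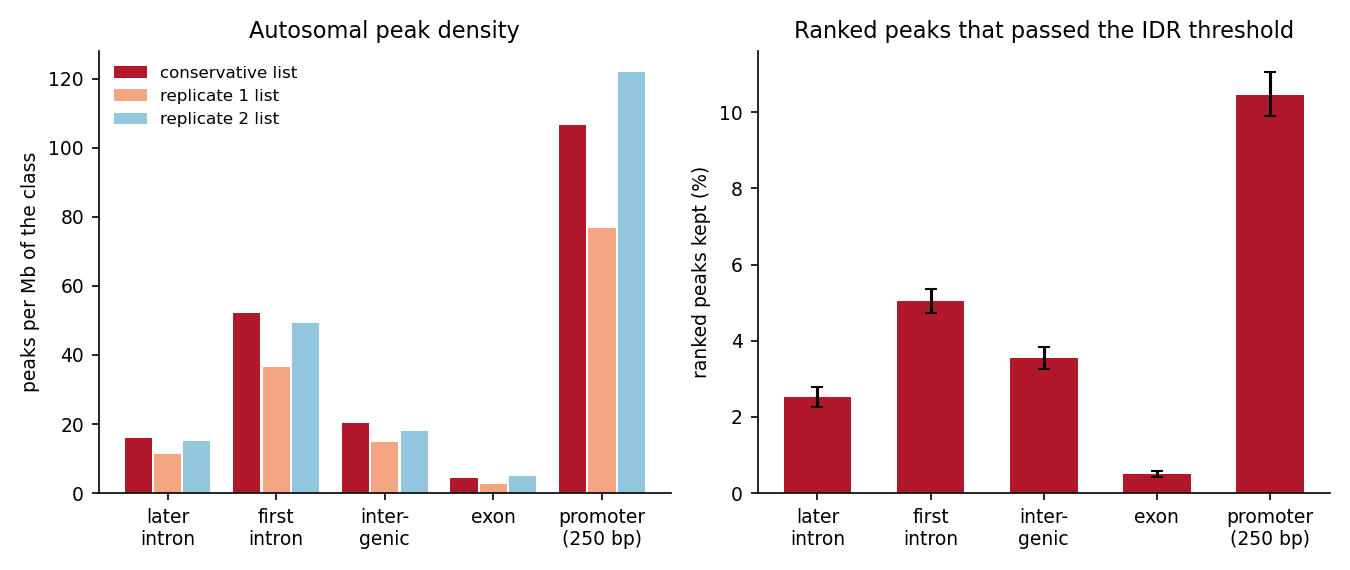
Left, peaks per Mb of each class of autosomal sequence (vertical axis) in the conservative list and in each replicate's own list. Right, the share of ranked peaks of each class that was kept (%), with exact 95% intervals as bars. Later introns held 15.97 peaks per Mb against 52.2 in first introns, and 2.51% of their ranked peaks were kept against 5.04%.

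The later-intron peaks were spread over the 4 large chromosome arms unevenly. Chromosome 2L held 86, or 20.8 per Mb of later-intron sequence, and 3L held 112, or 20.5 per Mb. The density was 15.1 per Mb on 2R (72 peaks) and 11.4 per Mb on 3R (92 peaks). Failed ranked peaks of the class varied less, with 663 per Mb on 2L, 633 on 3L, 660 on 2R and 572 on 3R. In replicate 1's own list 2L (14.8 per Mb) and 3L (12.96) again had the higher densities, with 9.64 on 2R and 9.45 on 3R. In replicate 2's own list the values were closer, from 12.4 per Mb on 3R to 18.6 on 2L. Chromosome 4, with 0.246 Mb of such sequence, held none, which allows up to 12.2 per Mb (3 counts), and 1 peak was there in replicate 2's own list.

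The signal of the later-intron peaks was spread widely, with a few high peaks above a large body of modest ones. It ran from 3.09 to 1806 with a median of 114.8 and quartiles of 91.9 and 161. The median was 122 in first-intron peaks, 119 in intergenic peaks and 139 in promoter peaks. The share of high peaks differed more than the medians. Of the 500 peaks of highest signal in the conservative list, 21 were later-intron peaks, 5.80% of the class, against 10.3% of the first-intron peaks (95), 11.4% of the intergenic peaks (66) and 19.1% of the autosomal promoter peaks (213).

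About as many later-intron peaks were found in both replicates' own lists as were not. A peak was found in a list when it overlapped a peak there by at least 50% of the shorter peak. Of the 362, 173 (47.8%, 42.5 to 53.1) were found in both lists, against 53.2% of all 3831 peaks, 51.0% (47.7 to 54.2) of first-intron peaks, 52.1% (47.9 to 56.2) of intergenic peaks and 55.6% (52.6 to 58.5) of promoter peaks. A further 41 were found in replicate 1's list only and 79 in replicate 2's only. In neither list were 69 (19.1%, 15.1 to 23.5), against 18.2% of all peaks. The peaks found in both had a median signal of 164, and those found in neither 85.1.

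The signals of the later-intron peaks were related between the replicates. A ranked peak overlapped the later-intron peak in both replicates in 347 cases, and was missing in replicate 1 for 6 and in replicate 2 for 13. Spearman's rho across the 347, replicate 1 signal with replicate 2 signal, was 0.614, against 0.683 over 870 first-intron peaks, 0.726 over 540 intergenic peaks and 0.751 over 1045 promoter peaks. These correlations run across peaks of the same 2 libraries, which are not independent, and depend on the range of signals in each class. The summits of the replicates lay a median of 23 bp apart, and 260 of the 347 (74.9%) were within 50 bp, against 77.1% of first-intron and 76.9% of intergenic peaks.

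**Figure D2:**
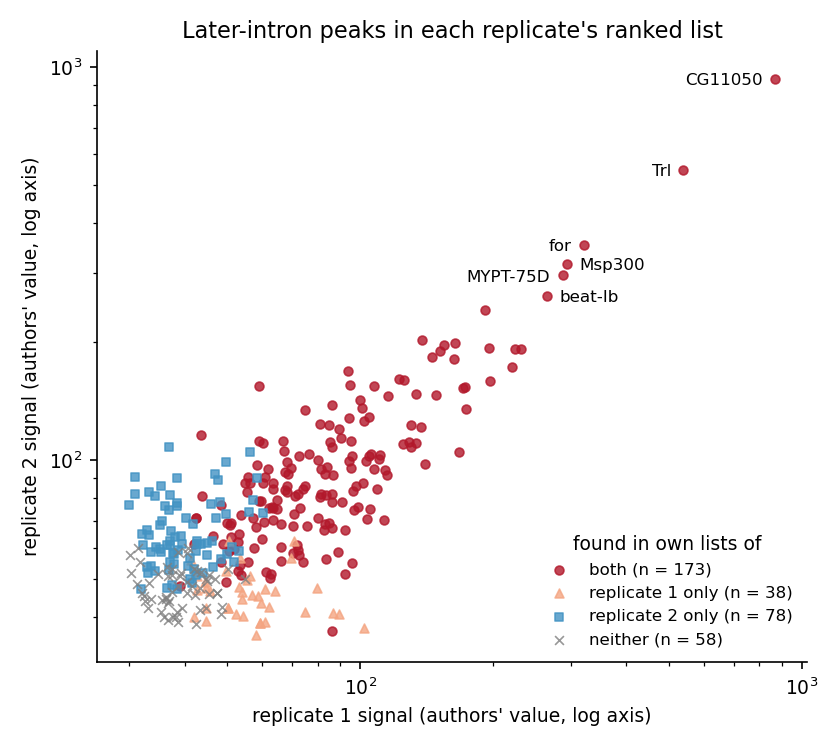
Signal of the 347 later-intron peaks with a ranked peak in each replicate, replicate 1 on the horizontal and replicate 2 on the vertical log axis, in the authors' units. Symbols show in which replicate's own thresholded list the peak was found. The 6 named peaks are the highest of the class, and the peaks found in neither list (58 of those drawn) sit at the low end of both axes.

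The 362 peaks are not 362 separate stretches of DNA. In 16 pairs, 2 later-intron peaks overlapped each other by 112 to 151 bp, and in 12 of these pairs both matched the same ranked peak of replicate 1 or replicate 2. Signals under 30 were found for 15 peaks, and 14 of the pairs held such a peak beside a stronger one. At gukh the pair had signals of 3.09 and 120, at cdi 3.66 and 106, and at EcR 14.9 and 111. None of the 15 was found in both own lists, and 12 had no ranked peak in replicate 2. With the weaker peak of each pair left out, 346 peaks remained.

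The rule's limit of 250 bp set apart peaks at neighbouring distances from a TSS. The later-intron peaks closest to a TSS lay at Ptp99A (262 bp, signal 156), stumps (303 bp, 175) and in the overlapping genes CG34310 and cup (308 bp, 95.4). Just on the promoter side were peaks at trio (250 bp, 241), Fhos (242 bp, 441) and CG9812 (237 bp, 192).

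Later-intron peaks lay nearer to start sites than the sequence they were drawn from, although the rule had removed the nearest ones. The median distance to a TSS was 3468 bp for the peaks (quartiles 1396 and 7333), 4640 bp for failed ranked peaks of the class and 5735 bp for all later-intron bases. A TSS lay within 1000 bp for 67 peaks (18.5%, 14.6 to 22.9), 10.8% of failed peaks and 9.52% of bases. The density of peaks was 36.2 per Mb from 250 to 750 bp from a TSS, 17.99 from 2000 to 5000 bp and 8.87 beyond 10000 bp. Failed ranked peaks had 675, 719 and 431 per Mb in these distances.

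Of the 67 peaks within 1000 bp of a start site, 50 lay upstream of it and 44 had a start site of the host gene itself as the nearest. The rule leaves out exons and first introns, and so much of the sequence just downstream of protein-coding start sites. The shares of later-intron bases and failed ranked peaks upstream of a start site were not measured, so 50 of 67 shows no preference for a side. Over all 362 peaks the nearest start site was the host's for 169 (46.7%, 41.5 to 51.97), and 192 were upstream of the nearest start site, whichever gene it belonged to.

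**Figure D3:**
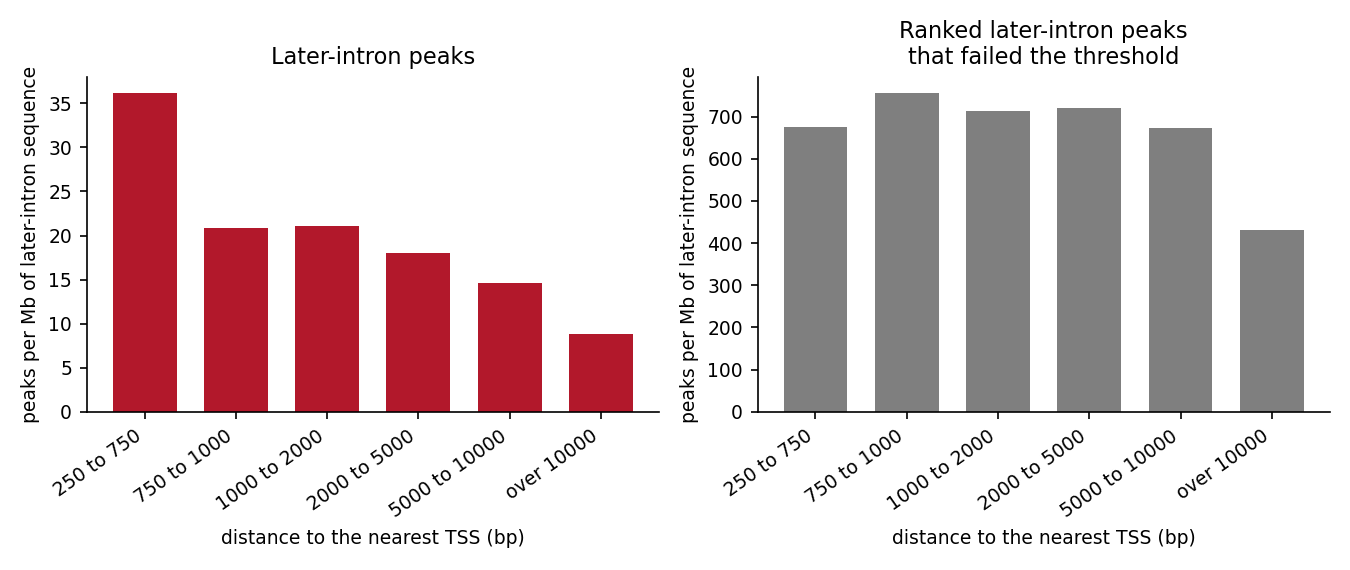
Peaks per Mb of autosomal later-intron sequence by distance from the nearest TSS (bp), for the 362 later-intron peaks (left) and for 13993 ranked peaks of the class that failed the threshold (right, on its own scale). The kept peaks were densest at 250 to 750 bp (36.2 per Mb) and sparsest beyond 10000 bp (8.87 per Mb), while the failed ones stayed between 673 and 756 per Mb up to 10000 bp.

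The peaks kept away from exons. A summit lay within 100 bp of an exon for 10 peaks (2.76%, 1.33 to 5.02), against 16.2% of failed ranked peaks and 13.1% of later-intron bases. The median distance to an exon was 1524 bp for the peaks, against 1113 bp for failed peaks and 1420 bp for bases. Exon-free stretches under 1000 bp, which are short introns or short parts of long ones, held 23 peaks (6.35%, 4.07 to 9.38), against 18.4% of failed peaks and 16.1% of bases. At the other end, stretches over 50 kb held 5 peaks (1.38%, 0.450 to 3.19), against 1.40% of failed peaks and 6.79% of bases.

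Most of the later-intron peaks lay in a second intron. The lowest intron number that a host transcript gives the summit was 2 for 239 peaks (66.0%, 60.9 to 70.9), against 51.5% of failed ranked peaks. It was 3 for 57 peaks (15.7%, against 20.2% of failed peaks), 4 for 33 (9.12%, against 10.7%) and 5 or more for 33 (9.12%, against 17.6%). Along the gap between the host gene's own exons, read from its 5' to its 3' end, the peaks were spread over the whole length. The first 20 percent held 55 peaks (15.2%, 11.7 to 19.3) and the last 20 percent 79 (21.8%, 17.7 to 26.4), against 21.2% and 19.9% of failed peaks. Another peak of the conservative list lay within 1000 bp of 69 later-intron peaks (19.1%), against 23.3% of all peaks, and within 5000 bp of 173 (47.8%), against 54.3%. Of the 69, 34 overlapped a neighbouring peak, and the 35 others were 9.67% of the class, against 12.97% of all peaks.

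The highest peak of the class lay in CG11050 (FBgn0031836), a gene known by a CG number, at 6612507 to 6612897 on 2L. Its signal was 1806, the 2nd highest of the whole conservative list, with 868 in replicate 1 (rank 4) and 934 in replicate 2 (rank 2). The summit was in an exon-free stretch of 140 bp, the shortest of any of the 362, 64 bp from an exon and 1017 bp downstream of the nearest TSS, so the peak of 391 bp also covered exon sequence. It differs in this from the rest of the class, which mostly lay in long introns.

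The second highest peak was in Trl (FBgn0013263), which encodes the GAGA factor, a protein that opens chromatin at promoters, at 14759363 to 14759675 on 3L. Its signal was 1092, with 539 in replicate 1 and 547 in replicate 2, and ranked 25 and 27 in those replicates. The peak in for (FBgn0000721), the foraging gene for a cGMP-dependent protein kinase, had a signal of 677, with 321 in replicate 1 and 353 in replicate 2. The next highest signal of the class was 607. These 3, of 362 later-intron peaks, were the only ones among the 100 highest peaks of the list. First introns had 14 there (of 924 peaks), intergenic sequence 4 (of 580) and autosomal promoters 60 (of 1115).

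Msp300 (FBgn0261836) encodes a giant nesprin that links nuclei to actin, and had peaks of signal 607 (294 in replicate 1 and 315 in replicate 2) and 323 (171 and 152) in introns 12 and 2. The peak in MYPT-75D (FBgn0036801), a targeting subunit of myosin phosphatase, had a signal of 531, with 287 in replicate 1 and 295 in replicate 2. beat-Ib (FBgn0028645) belongs to the beaten path family of immunoglobulin proteins of axon guidance, and its peak had a signal of 524, with 264 and 262. The peaks in Kank (327, with 145 and 183), a scaffold protein gene, and Dys (322, with 173 and 154), the dystrophin gene, are also among the 20 highest.

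Psc (FBgn0005624), a Polycomb group protein gene, had a peak of signal 427, with 231 in replicate 1 and 192 in replicate 2. JIL-1 (FBgn0020412) encodes a kinase of histone H3 and had 424, with 192 and 241, and upSET (FBgn0036398), which encodes a SET domain protein of chromatin, had 386, with 221 and 173. Mastermind (mam), the coactivator of Notch, had 2 peaks 617 bp apart by their summits, of signal 410 (224 and 192) and 329 (151 and 190). Dad, the inhibitory Smad of Dpp signalling, had 358 (164 and 198). rdx, the BTB adaptor that marks the Hedgehog effector Ci for degradation, had 356 (155 and 197), and shn, a zinc finger partner of the Dpp Smads, had 344 (196 and 159).

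The remaining 3 of the 20 highest were in sick, E23 and Pli. The peak in sick had a signal of 388, with 195 in replicate 1 and 193 in replicate 2. E23 encodes an ABC transporter induced early by ecdysone, and its peak had 343, with 138 and 202. Pli encodes Pellino, a ubiquitin ligase of immune signalling, and its peak had 341, with 163 and 181. The 20 peaks belong to 18 genes, 16 lay in an intron numbered 2, 11 were upstream of the nearest start site and 7 had a start site within 1000 bp. In replicate 1 their ranks ran from 4 to 534 and in replicate 2 from 2 to 511.

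The summits of the later-intron peaks sat in a narrow dip of GC content. Within 50 bp of the summit GC averaged 32.7% ± 9.42 (SD over 362 peaks), against 43.9% ± 7.03 in the windows centred 300 bp to each side. GC was lower at the summit than beside it at 293 peaks (80.9%), against 44.8% of failed ranked peaks, whose summits averaged 43.4% and their flanks 42.7%. The dip was shared by the other classes of peaks. First-intron peaks averaged 33.0% at the summit and 43.5% beside it, intergenic peaks 33.2% and 44.5%, and promoter peaks 35.03% and 43.2%. All later-intron bases together had 39.6% GC.

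GC at the summit was lower in the peaks of higher signal. The 121 later-intron peaks of highest signal (143 to 1806) averaged 29.1% GC, the 120 in the middle 32.5% and the 121 of lowest signal (3.09 to 99.1) 36.6%. Peaks found in both replicates' own lists averaged 29.6% ± 6.70 (SD, 173 peaks) and the others 35.6% ± 10.6 (189 peaks). The share found in both was 97.5% among the 121 highest and 4.13% among the 121 lowest. Median peak width was 246 bp among the 121 highest and 350 bp in the middle and lowest groups. The replicates' summits lay a median of 17 bp apart in the highest group, 22 bp in the middle and 33 bp in the lowest. Signal, replication, peak width, summit placement and base composition moved together, so their parts cannot be told apart here. Most bases of the summit window were soft-masked as repeat or low-complexity sequence at 37 peaks (10.2%, 7.30 to 13.8), against 4.20% of failed peaks, and the sources used here do not give how reads in such sequence were placed.

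**Figure D4:**
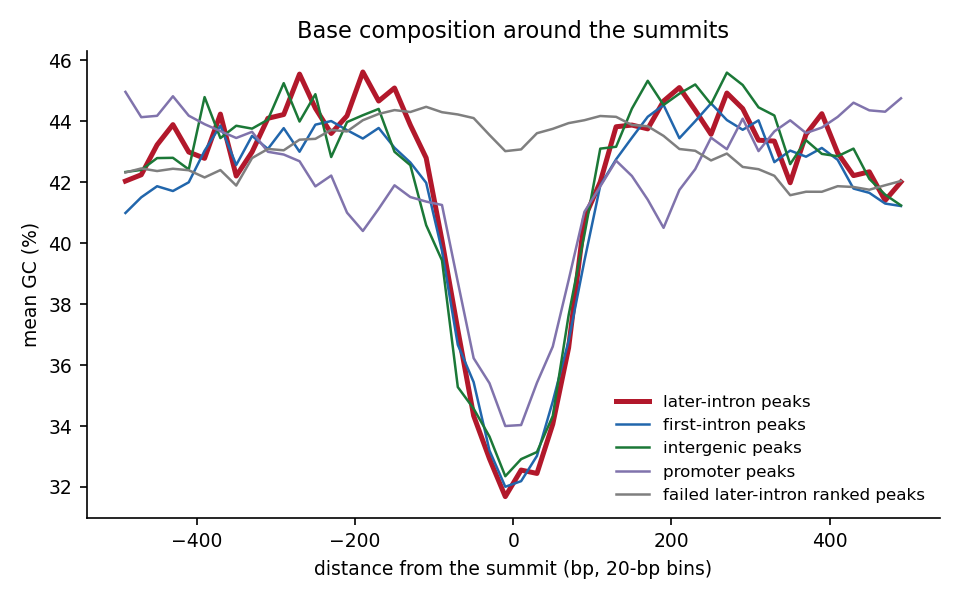
Mean GC (%) in bins of 20 bp by distance from the summit (bp) for later-intron peaks, first-intron, intergenic and promoter peaks, and later-intron ranked peaks that failed the threshold. The vertical axis starts above 0. GC of the later-intron peaks fell to 31.7% at the summit and reached 45.6% at 190 bp from it, while that of failed peaks stayed between 41.6% and 44.5%.

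The motifs most raised at the summits were words rich in A and T. Of 35 motifs searched on both strands, 12 were held by a larger share of summit windows than of flanking windows, 1 of them (AGGATAA, bound by ttk, at 1.38% of summits) absent from the flanks. TATAAA, the core of the TATA box, was in 79 windows (21.8%, 17.7 to 26.4), against 10.6% of flanks, 9.61% of failed ranked peaks and 22.7% of all peaks of the list. The share was 23.1% in first-intron, 23.8% in intergenic and 22.6% in promoter peaks, so it was about the same in every class. It was 27.3% in the 121 peaks of highest signal, 22.5% in the 120 in the middle and 15.7% in the 121 of lowest signal.

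Of the words recognised by other factor families, those of GATA factors and homeodomains were also more common at summits, and others were less common there. AGATAA, bound by GATA factors, was at 34 summits (9.39%, against 4.28% of flanks and 8.01% of all peaks of the list). TAATTA, bound by homeodomains, was at 39 (10.8%, against 5.94% of flanks and 10.7% of all peaks). TGTTTA, bound by forkhead factors, was at 57 (15.7%, against 11.9% of flanks). Its share was 15.5% in the left flanks and 8.29% in the right flanks, so it was hardly higher at summits than in the left flanks. CGATA, bound by BEAF-32, was at 42 (11.6%, against 8.15% of flanks). GAGAG, bound by GAGA factor and CLAMP, was at 43 (11.9%, against 16.4% of flanks and 10.3% of all peaks). The E-box CANNTG was at 126 (34.8%, against 43.5% of flanks and 33.8% of all peaks). These shares were near those of the whole list, so they are not particular to later introns. Motifs named DRE (Dref), M1BP, CRE, CTCF and grh were at none of the 362 summits. They were rare in all peaks of the list too, from 0.157% (grh) to 0.783% (DRE). The interval of 0 of 362 reaches 1.01%, so their absence is not particular to the class. A word in a window does not show that its factor was bound, and its absence says only that these letters were not there.

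Among all words of 6 bases, those with A and T led as well. Of 194 words held by at least 10% of the summit windows, counting a word with its reverse complement, 185 were held more often at summits than in flanks, and 175 had at most 1 G or C. The 5 with the highest ratio were ATCTTA (12.98% of summits, against 2.62% of flanks), TTAGAA (12.4% against 2.76%), ATATTA (21.5% against 5.25%), TAGATA (12.4% against 3.04%) and ATAGAT (12.2% against 3.04%). They were chosen by this ratio, so its size is a description. In all peaks of the list ATATTA was as common (21.5%), while ATCTTA (9.06%), TTAGAA (9.50%), TAGATA (7.28%) and ATAGAT (7.91%) were less so. How much of these shares follows from the base composition alone was not tested.

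The 362 peaks fell in introns of 221 host genes, and 9 peaks lay in introns of 2 genes at once. A single peak was in 134 of the genes, 2 peaks in 51, and 3 or more in 36, which together accounted for 135 of the peaks counted by gene. Host genes often had stc peaks elsewhere too. A promoter peak was at 62 of the 221 (28.1%, 22.2 to 34.5), against 12.4% (11.6 to 13.2) of 6555 autosomal protein-coding genes with later-intron sequence but no such peak, and 10.7% of all autosomal protein-coding genes. A first-intron peak was in 72 (32.6%, 26.4 to 39.2), against 7.02% (6.41 to 7.66) of the genes without, and 5.06% of all.

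Host genes were longer than the others. Their median length was 31.8 kb, against 3.45 kb in the genes without a later-intron peak. Among genes with at least 10 kb of later-intron sequence, a promoter peak was at 35 of 133 hosts (26.3%, 19.1 to 34.7), against 40 of 377 others (10.6%, 7.69 to 14.2). A first-intron peak was in 45 of the 133 (33.8%, 25.9 to 42.5), against 55 of the 377 (14.6%, 11.2 to 18.6). These 133 hosts were still longer, with a median length of 50.7 kb against 41.9 kb in the 377 others. Their median later-intron sequence was 24.8 kb against 20.4 kb. The density of later-intron peaks was highest in genes with 5 to 10 kb of such sequence, at 30.6 per Mb, and was 7.61 per Mb in the genes with 50 kb or more and 8.44 per Mb in those with under 1 kb.

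The gene with the most later-intron peaks was ftz-f1 (FBgn0001078), which encodes a nuclear receptor that acts as a competence factor for ecdysone. It had 8 peaks over 23.4 kb of 3L, all in an intron numbered 2, with signals of 91.9 to 256, and 4 were found in both own lists. The highest, at 18784672 to 18784834, had 137 in replicate 1 and 122 in replicate 2. The peaks formed a group of 5 from 11.5 to 19.03 kb and one of 3 from 29.4 to 34.9 kb from the gene's 5' end, the last of them 681 bp from an internal start site. The larger thresholded list of the series had 10 later-intron peaks in ftz-f1, and each replicate's own list had 6.

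The other genes with 5 or more were Tet, Pli, msn and tai. Their counts depended on the list. Tet had 3 later-intron peaks in each replicate's own list and 4 in the larger list, and Pli had 3 in each replicate's own list and 5 in the larger list, while msn and tai had 4 or 5 in each replicate's own list. Tet (FBgn0263392), which encodes a dioxygenase of the family that oxidises methylated bases, had 6 peaks of 8.30 to 128, 2 of them overlapping and 2 found in both own lists. Pli had 5 peaks, 3 of them between 2363 and 3583 bp from the nearest start site, with signals of 73.5, 341 and 151. msn, a kinase gene of the JNK pathway, had 5 peaks of 93.1 to 305, of which 4 were found in both own lists. tai encodes a coactivator of the ecdysone receptor and had 5 peaks of 103.7 to 188.

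**Figure D5:**
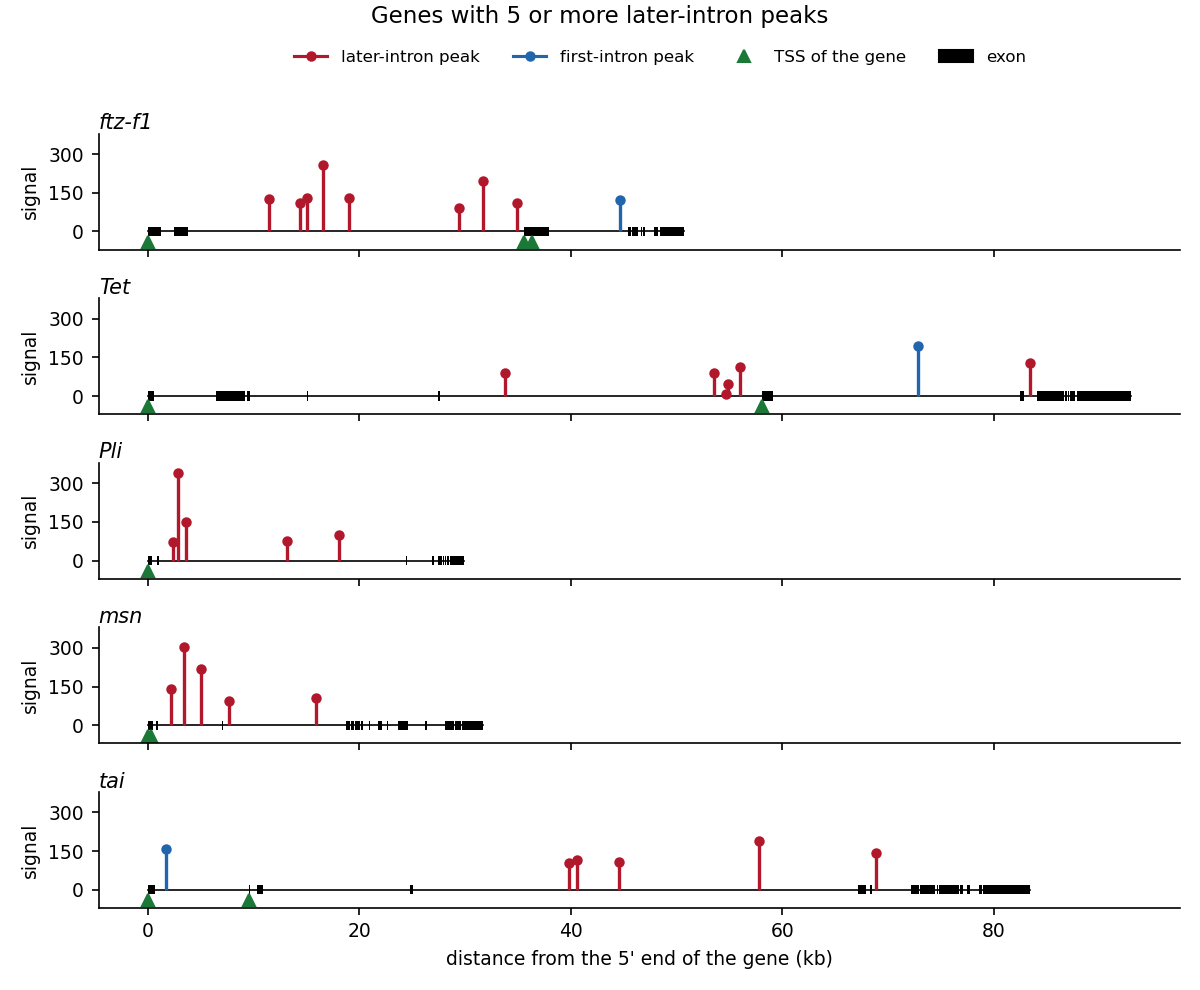
Maps of the 5 genes with 5 or more later-intron peaks, drawn to scale by distance from the gene's 5' end (kb). Red stems are later-intron peaks, blue stems first-intron peaks, with their signal on the vertical axis, black boxes are exons of all transcripts and green triangles start sites. Promoter and exon peaks are not drawn. In ftz-f1 the 8 peaks stand in 2 groups, and in Pli and msn the highest stands within 5 kb of the 5' end.

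Another 13 genes held 4 later-intron peaks each. In rdx all 4 (162 to 356) were found in both own lists. In shn the 4 peaks (88.2 to 344) lay within 2.77 kb, and 3 were found in both. The others were mam, a Notch coactivator gene, the EGFR pathway factor gene pnt, the receptor genes EcR (ecdysone) and fz (Wnt), the kinase gene nmo, the adhesion and guidance genes ed and Sema1a, and mtgo, luna, haf and MSAmiP. None of the 4 in fz (83.6 to 102) was found in both own lists. These counts also depended on the list. In replicate 1's own list they ran from 1 (fz) to 5 (rdx), and in replicate 2's from 2 (fz, EcR, haf and MSAmiP) to 6 (rdx, shn and pnt). The 4 in EcR and the 4 in haf each include an overlapping pair, whose weaker peak had a signal of 14.9 in EcR and 10.2 in haf.

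Taken by 9 lists of genes, later-intron peaks were unevenly spread over functions. In the lists together lay 107 peaks (29.6%), against 32.5% of the later-intron bases. Genes of nuclear receptors and the ecdysone response, the steroid hormone system that times development and moulting, held 24 peaks (6.63%, 4.29 to 9.70), against 1.49% of the later-intron bases and 2.37% of failed ranked peaks. That is 70.99 peaks per Mb of the list's later-intron sequence, against 15.97 over all later introns. The list's host genes hold 13.5 to 46.3 kb of such sequence each. Over all genes with 10 to 20 kb the density was 20.1 per Mb, and with 20 to 50 kb 19.8 per Mb. The list was chosen with earlier results of these data known, so its density is a description. Replicate 1's own list had 15 (5.91%) and replicate 2's had 17 (5%).

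The peaks of this list came from 8 genes, and ftz-f1, tai and EcR held most of them. Without ftz-f1, 16 were left. EcR, the ecdysone receptor, had a highest signal of 184, with 72.6 in replicate 1 and 102 in replicate 2, and tai had 188, with 96.3 and 83.8. E23 had 2 peaks (343 and 180), both found in both own lists. The ecdysone-induced transcription factor genes Eip75B (2 peaks, 76.4 and 86.9) and Eip74EF (90.8), the kinase gene Eip63E (134) and the receptor gene Hr39 (77.9) had none found in both. Of the list's 24, 11 were found in both (45.8%), against 47.8% of the class.

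Genes of the Wnt, Hedgehog, Notch, Dpp and EGFR signalling pathways held 29 peaks (8.01%, 5.43 to 11.3) in 13 genes, against 2.68% of bases and 5.04% of failed ranked peaks. The 4 highest hosts were mam (410), Dad (358), shn (344) and dlp, a glypican gene of Wnt and Hedgehog signalling, whose peak had a signal of 212 with 89.6 in replicate 1 and 120 in replicate 2. The Wnt receptors and co-receptor fz (4 peaks), fz2 (3) and arr (3) held 10 more, of which 1, in arr, was found in both own lists. The list as fixed includes foxo (103) and S6k (84.9), which belong to insulin and TOR signalling. In both own lists were 12 of the 29 (41.4%).

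Muscle and sarcomere genes held 9 peaks (2.49%, 1.14 to 4.67) in 6 genes, against 1.16% of bases and 1.69% of failed peaks. They were in Msp300 (3 peaks), Zasp66 (2), Dys, Zasp52, rols and nau, and 7 of the 9 were found in both own lists. Zasp66 and Zasp52 encode proteins of the Z-disc. The highest peak in Zasp66 had a signal of 209, with 74.9 in replicate 1 and 135 in replicate 2, and the peak in Zasp52 had 119, with 50.9 and 69.2.

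Axon guidance and neural adhesion genes, the list nearest to the known role of stc in the nervous system, held later-intron peaks in about the proportion of their sequence. They held 26 (7.18%, 4.75 to 10.4) in 14 genes, against 7.97% of bases and 8.004% of failed ranked peaks. After beat-Ib (524) the highest were in Sema1a, a semaphorin gene (286, with 126 in replicate 1 and 160 in replicate 2), dlp (212) and ed, which encodes the adhesion protein Echinoid (200.5, with 94.2 and 99.7). Genes of RhoGTPases and their regulators, which steer the cytoskeleton, held 4 (1.10%, 0.302 to 2.80), against 0.89% of bases and 1.23% of failed peaks. These were in pbl (239), trio (147 and 125) and RhoGEF64C (90.2), all of them genes of exchange factors.

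Cytoskeleton and motor genes held 12 (3.31%, 1.72 to 5.72), against 8.21% of bases and 2.39% of failed ranked peaks, so kept and failed peaks were both sparse there. The hosts were Msp300, Zasp66, scrib, shot, Dys, Zasp52 and the kinesin gene Klp98A (206, with 103 in replicate 1 and 99.5 in replicate 2), and 10 of the 12 peaks were found in both own lists. Ion channel, receptor and synapse genes held 5 (1.38%, 0.450 to 3.19), against 4.38% of bases and 2.29% of failed peaks. They were in scrib, a polarity scaffold (179 and 93.6), Ca-beta, a calcium channel subunit (112 and 107), and Shab, a potassium channel (129).

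Genes of RNA binding and splicing regulators held 8 (2.21%, 0.959 to 4.31), against 4.36% of bases and 5.26% of failed ranked peaks. The highest were in heph, the polypyrimidine tract binding protein gene (239, with 100.99 in replicate 1 and 136 in replicate 2), pum, a translational repressor (182, with 113 and 70.7), how (167, with 60.3 and 111) and Rbfox1 (151, with 86.1 and 78.5). Embryonic patterning and neural transcription factor genes held 10 (2.76%, 1.33 to 5.02), against 3.09% of bases and 4.92% of failed peaks. Their share was 3.54% in replicate 1's own list, 4.71% in replicate 2's and 3.41% in the larger list, so the side of the base share on which it fell changed with the list. The hosts were shn, zfh1 (290, with 149 in replicate 1 and 146 in replicate 2), hth (236, with 130 and 108), how, which encodes an RNA binding protein, and twi (82.2). The intervals of these shares count peaks, and peaks in the same gene share its sequence and its length.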

How the data were processed

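Peak lists on the dm6 build, per the labels, were analysed. Neither aligner nor peak caller is named in the labels or files used here. The authors deposited a ranked and a thresholded list for each replicate and for the series. The signal of a peak and the −log10 values of its q-value and IDR are as the authors deposited them beside each peak.

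Genes, exons and start sites were those of Ensembl BDGP6.54 (release 115). The sequence was that of RefSeq Release 6, which is dm6. Each autosomal base fell in the first class that applied: promoter (within 250 bp of a TSS), exon, first intron, later intron, intron of non-coding genes only, and intergenic. Positions count from 1. A peak's signal in a replicate is that of the strongest peak of that replicate's ranked list that overlaps it by at least 50% of the shorter peak. Motifs and words of 6 bases were searched within 50 bp of the summit on both strands. Of 622 symbols in the 9 gene lists, 591 matched the annotation.

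The genes named are the hosts of the 20 highest peaks found in both own lists, every host with 4 or more peaks, up to 4 hosts of highest signal in each gene list, and the peaks nearest the 250 bp limit. Further hosts of a list were named after their values were seen. The peaks, lists and motifs were chosen with earlier results of these data known. Alternatives were the other lists, each replicate alone, an IDR of 0.001 or less, other TSS distances, overlaps and windows, and, added after seeing the data, leaving out the weaker of overlapping peaks. The code was tested on simulated data with known answers. Python 3.11.15, numpy 2.4.6, pandas 2.3.3, scipy 1.17.1 and matplotlib 3.10.9 were used.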

Additional observations from a re-analysis of the deposited data

How the results depend on the processing

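Across 7 results and 35 alternatives, 26 values stayed within 1.5 times the count or within the 95% interval of the share or median, and 9 did not. At an IDR of 0.001 or less 164 later-intron peaks remained of the 362. From one replicate's own list alone there were 254 to 340. Later-intron summits were 9.45% of the peaks of the conservative list and 13.5% of the ranked peaks that failed the threshold. The median signal was 100.5 in the larger list and 67.8 to 69.46 in one replicate's own list, whose signals come from one library and are not on the scale of the conservative list. TATAAA was within 25 bp of 10.5% of the summits and within 100 bp of 35.9%, as a narrower or wider window holds fewer or more bases, and the flanks held 4.70% and 18.8%. Host genes with 3 or more peaks numbered 55 in the larger list of 498 later-intron peaks, and 22 to 34 in one replicate's own list, with 22 in that of replicate 1, against 36. Leaving out the weaker of overlapping peaks, an alternative chosen after seeing the data, gave 346 peaks, 49.7% found in both own lists, a median signal of 118.6, TATAAA at 22.8% and 31 such genes. For the 8 gene lists other than that of nuclear receptors, 32 of 32 values stayed within the interval. No paired analysis was possible because the study has 1 group and no test was run. With 2 replicates, no control and no read depth in the lists, background at a peak could not be measured here.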
